A study of Mus musculus with 8 samples.

Results

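The Mediator complex was examined through the expression of its 33 subunit genes in mouse embryonic stem cells (ESCs) depleted of the cohesin subunit Rad21. The genes were taken as a list of subunits by name, and all 33 were measured, among 18193 genes with a probe set of a single gene symbol. The platform was an Affymetrix mouse genome array, on which a probe set is a group of short probes against a transcript. The 33 genes were covered by 72 probe sets, 14 genes by a single probe set and 19 by several, up to 7 for Med1. The brightest probe set of a gene, by its mean over all arrays, gave its main value. Every one of the 33 main values had a mean of at least 4, on a log2 scale whose array medians lay between 3.08 and 3.16.

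The knock-down cells were R1/E ESCs transfected for 48 h with 800 ng esiRNA against Rad21, measured on 4 arrays. The control cells were R1/E ESCs transfected in the same way with esiRNA against luciferase (Luc), a transcript that mouse cells lack, also measured on 4 arrays. An esiRNA is a pool of short interfering RNAs made by enzymatic digestion of a long double-stranded RNA. All cells belong to the same ESC line, so the arrays are repeats within a line and not different lines. The labels call the arrays of a group biological replicates 1 to 4 without naming separate cultures, and p-values measure only the spread between these arrays.

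Rad21 itself was lowered as its label states. Its brightest probe set read 11.69, 11.75, 12.37 and 12.52 in the Rad21 knock-down, against 13.62, 13.42, 13.83 and 13.79 in the Luc control. The groups did not overlap, and the level was 33.4% of control (log2 change -1.58, SE 0.21, limma with Benjamini-Hochberg adjusted p = 0.00222). The other Rad21 probe sets fell by 0.98 and 2.59 on the log2 scale, with adjusted p of 0.0114 and 0.000164 in limma.

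Mediator is a large protein assembly that carries signals from transcription factors bound at enhancers to RNA polymerase II at promoters. Its head and middle modules contact the polymerase, its tail module contacts most activators, and Med14 runs through the complex as a backbone. A separable kinase module, built of a Cdk8-type kinase, cyclin C, Med12 and Med13, docks on the core and can block its contact with the polymerase. In ESCs, Mediator and cohesin have been found together at enhancers and promoters of active genes, where the cohesin loader Nipbl is also present.

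Promoter sequence is shown for the 4 members whose main value moved by at least 0.5 on the log2 scale with the largest change in their direction, Med12l and Med14 upward and Med13l and Med19 downward, so that the results below can be set beside the DNA they start from. Windows of 300 bases, from 250 before to 50 after an annotated start, were read from RefSeq on the mouse assembly GRCm38.p6. They run 5′ to 3′ on the strand of the gene. Where a gene had several windows, only the one farthest upstream was used. Capitals mark matches, on either strand, to any of 4 short motifs. The GC box, a site of Sp-family factors, was searched as GGGCGG. The CCAAT box was searched by the letters of its name. For the TATA box, the site of the TATA-binding protein, the letters were TATAAA. For the Ets family of factors they were CCGGAAG. The search allowed matches of different motifs to overlap.
Med12l, chr3:59006728-59007027, plus strand: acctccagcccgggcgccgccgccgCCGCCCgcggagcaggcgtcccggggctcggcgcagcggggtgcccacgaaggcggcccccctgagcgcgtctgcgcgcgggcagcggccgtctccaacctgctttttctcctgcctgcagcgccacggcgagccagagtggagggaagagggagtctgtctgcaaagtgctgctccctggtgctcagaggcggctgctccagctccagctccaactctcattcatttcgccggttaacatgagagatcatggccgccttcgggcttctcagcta
Med14, chrX:12761924-12762223, minus strand: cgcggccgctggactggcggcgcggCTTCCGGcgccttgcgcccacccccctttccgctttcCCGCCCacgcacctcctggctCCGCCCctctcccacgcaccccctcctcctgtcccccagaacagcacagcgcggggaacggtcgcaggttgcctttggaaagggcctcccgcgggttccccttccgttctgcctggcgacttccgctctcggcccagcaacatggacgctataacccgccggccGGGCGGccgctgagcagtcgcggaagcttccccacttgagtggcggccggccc
Med13l, chr5:118560469-118560768, plus strand: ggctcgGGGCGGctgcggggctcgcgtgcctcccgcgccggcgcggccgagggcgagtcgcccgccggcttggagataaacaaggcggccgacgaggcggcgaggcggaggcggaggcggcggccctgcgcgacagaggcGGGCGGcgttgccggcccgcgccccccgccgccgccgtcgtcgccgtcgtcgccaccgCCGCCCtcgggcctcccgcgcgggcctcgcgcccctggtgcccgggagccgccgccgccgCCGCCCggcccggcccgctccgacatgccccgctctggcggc
Med19, chr2:84678152-84678451, plus strand: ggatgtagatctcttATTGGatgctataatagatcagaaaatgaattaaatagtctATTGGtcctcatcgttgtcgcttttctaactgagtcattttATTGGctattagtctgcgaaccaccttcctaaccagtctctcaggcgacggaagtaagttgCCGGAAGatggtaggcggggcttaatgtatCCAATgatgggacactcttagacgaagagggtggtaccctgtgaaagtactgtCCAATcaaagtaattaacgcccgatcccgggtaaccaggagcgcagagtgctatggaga
The Med12l window held 1 GC box and 30 CpG dinucleotides, and the Med14 window held 3 GC boxes, 1 Ets motif and 34 CpG. The Med13l window held 4 GC boxes and 61 CpG, the highest number among the members. The Med19 window differed from these, with 5 CCAAT boxes, 1 Ets motif, no GC box and 12 CpG.

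A window was present for 28 of the 33 members. Med8, Med23, Med24, Med30 and Cdk19 had none in the table used. The median number of CpG was 22 in the members, against 7 in 27025 genes of all kinds and 13 in 17491 protein-coding genes. A GC box was found in 64.3% of the members, 35.9% of all genes and 46.3% of protein-coding genes. An Ets motif was found in 25.0% of the members, 9.14% of all genes and 11.9% of protein-coding genes. CCAAT boxes (39.3% of members, 38.0% of all genes) and TATA boxes (10.7% of members, 14.2% of all genes) were at nearly the same share. These are counts of letters in a window and were not tested. Members that rose and members that fell both included GC boxes, in 66.7% of 3 and 42.9% of 7, and the members that did not pass held them in 72.2% of 18.

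To ask whether Mediator genes respond to the loss of cohesin, the Rad21 knock-down was compared with the Luc control at every probe set with limma, and p-values were adjusted over 45037 probe sets. Of the 33 Mediator genes, 3 rose (Med12l, Med14 and Med10), 7 fell (Med13l, Med19, Med31, Med9, Med27, Med17 and Med18) and 23 did not pass an adjusted p of 0.05. The share of members called, 30.3%, stood between the 22.6% called among all genes and the 38.6% called among the 10299 genes with a mean of at least 4, the range in which all members lay. By direction, 9.09% of the members rose and 21.2% fell, against 10.1% and 12.6% of all genes and 16.7% and 22.0% of genes with a mean of at least 4. The number of Mediator genes called was therefore near the background for genes of such brightness. The median change of the members was -0.075, against 0.003 for all genes. The change was under 0.25 in size in 26 of the 33 genes, and a change of at least 1 was seen in Med12l only.

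**Figure D1:**
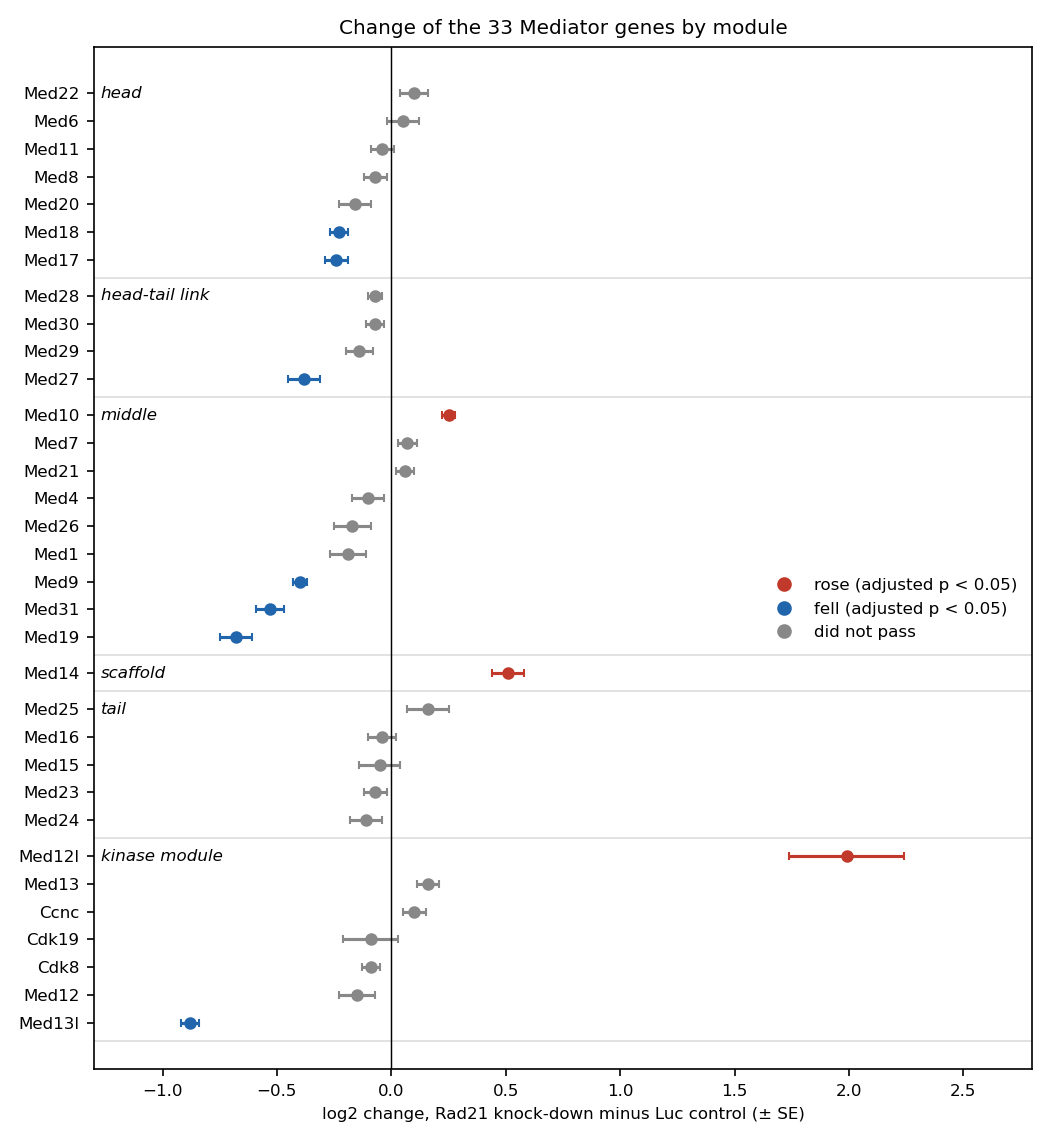
Change in the Rad21 knock-down relative to the Luc control (log2, x axis) at the main value of each of the 33 Mediator genes, ordered by module down the page, with bars for the SE of the fit (n = 4 arrays per group). Med12l stands apart at 1.99, Med13l lies lowest at -0.88, and all 5 tail genes lie near 0.

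For each of the 23 genes that did not pass, the 95% confidence interval of the log2 change at the main value lay within 0.5 of 0. Over these genes the intervals reached from -0.37 to 0.36. A bound of 0.5 is wider than the called changes of Med10, Med17 and Med18. Some dimmer probe sets at a mean of at least 4 went beyond it. Their intervals were -0.70 to -0.15 for Ccnc, -0.60 to -0.04 for Med1 and -0.24 to 0.77 for Med13. At the main values, the fitted changes of the 23 genes lay between -0.19 (Med1) and 0.16 (Med13 and Med25). Med13 was the gene nearest to the threshold among them, and its values did not overlap between the groups. Groups did not overlap in 11 of the 33 members, which are the 10 called genes and Med13, with the knock-down above in 4 and below in 7. Among all genes 27.8% had non-overlapping groups, 12.6% with the knock-down above and 15.2% with it below.

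The head module, which contacts RNA polymerase II, had 2 falls and no rise among its 7 genes, with a median change of -0.067. The share called was 28.6%, beside 38.6% of all genes with a mean of at least 4, and 7 genes are too few to tell these apart. Med18, which forms a mobile part of the head together with Med20, read 10, 10, 10 and 10.1 (to 2 decimals) in the Rad21 knock-down, against 10.29, 10.17, 10.30 and 10.28 in the Luc control. All 4 knock-down arrays lay below all controls, although replicate 2 of the control came close. Med18 fell to 85.0% of control (log2 change -0.23, SE 0.04, limma adjusted p = 0.00508).
Med17, the central subunit of the head, read 11.06, 10.99, 11.02 and 10.95 in the Rad21 knock-down, against 11.25, 11.38, 11.22 and 11.12 in the Luc control. The groups did not overlap, although the lowest control array lay close above the highest knock-down array. Med17 fell to 84.9% of control (log2 change -0.24, SE 0.05, limma adjusted p = 0.0251). This call was lost, with limma adjusted p between 0.0530 and 0.0685, when knock-down replicate 2, 3 or 4 or control replicate 1 or 3 was left out.
The other head genes, Med6, Med8, Med11, Med20 and Med22, did not pass, with changes from -0.16 (Med20) to 0.10 (Med22). A dimmer probe set of Med20 did pass, at 8.55, 8.45, 8.74 and 8.75 in the Rad21 knock-down, against 8.87, 8.98, 8.83 and 8.90 in the Luc control (log2 change -0.27, SE 0.07, limma adjusted p = 0.0485). Both Med20 probe sets thus lay lower in the knock-down, but only the dimmer of them parted the groups.

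Med27, Med28, Med29 and Med30 are subunits of animal Mediator that sit where head and tail meet. Med27 read 8.47, 8.34, 8.37 and 8.37 in the Rad21 knock-down, against 8.64, 8.84, 8.69 and 8.92 in the Luc control. Every knock-down array was below every control, and Med27 fell to 76.7% of control (log2 change -0.38, SE 0.07, limma adjusted p = 0.00743). Med28, Med29 and Med30 did not pass, with changes of -0.07, -0.14 and -0.07.

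The middle module, with the largest number of genes, had 1 rise and 3 falls among 9 genes and a median change of -0.17. These are 44.4% of its genes, near the 38.6% of all genes with a mean of at least 4. Med19, which joins the middle to the rest of the core and takes part in contacts with the repressor Rest, read 9.84, 9.97, 10.11 and 10.06 in the Rad21 knock-down, against 10.59, 10.60, 10.74 and 10.75 in the Luc control. The gap between the groups was wider than the spread within either. Med19 fell to 62.6% of control (log2 change -0.68, SE 0.07, limma adjusted p = 0.000649). It was the only member with several probe sets of which all were called. The second probe set fell by 0.57 on the log2 scale (SE 0.06, limma adjusted p = 0.000857).
Med31, a small subunit conserved to yeast, read 10.25, 10.20, 10.35 and 10.25 in the Rad21 knock-down, against 10.80, 10.92, 10.67 and 10.77 in the Luc control. The groups did not overlap, and Med31 fell to 69.5% of control (log2 change -0.53, SE 0.06, limma adjusted p = 0.000879).
Med9, which pairs with Med4 in the middle module, read 10.33, 10.40, 10.44 and 10.42 in the Rad21 knock-down, against 10.74, 10.85, 10.81 and 10.80 in the Luc control. The values within a group were close together and the groups did not overlap. Med9 fell to 75.6% of control (log2 change -0.40, SE 0.03, limma adjusted p = 0.000291). A dimmer probe set of Med9 did not pass, and its groups overlapped (log2 change -0.17, SE 0.16, limma adjusted p = 0.683). Med4, the partner of Med9, did not pass (log2 change -0.10, SE 0.07, limma adjusted p = 0.560).
Med10 moved the other way from these 3 genes. It read 12.50, 12.43, 12.42 and 12.45 in the Rad21 knock-down, against 12.18, 12.26, 12.14 and 12.23 in the Luc control, without overlap. The rise was small, 1.19-fold (log2 change 0.25, SE 0.03, limma adjusted p = 0.0025).
Med1, the docking site of nuclear receptors, Med26, which recruits elongation factors, and Med7 and Med21, which pair in the middle module, did not pass, with changes of -0.19, -0.17, 0.07 and 0.06. None of the 7 probe sets of Med1 was called.

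Med14, the backbone that binds head, middle and tail, read 10.02, 10.12, 10.36 and 10.20 in the Rad21 knock-down at its brightest probe set, against 9.67, 9.64, 9.75 and 9.61 in the Luc control. All knock-down arrays were above all controls, and this probe set rose 1.42-fold (log2 change 0.51, SE 0.07, limma adjusted p = 0.0029).
A second probe set of Med14 went the other way. It read 6.09, 6.25, 6.0 and 6.33 in the Rad21 knock-down, against 6.42, 6.87, 6.77 and 6.36 in the Luc control, with the groups just apart, and it did not pass (log2 change -0.44, SE 0.13, limma adjusted p = 0.0712). The brighter minus the dimmer probe set, taken within each array, was 3.87 to 4.35 in the Rad21 knock-down and 2.77 to 3.25 in the Luc control. The remaining 3 probe sets of Med14 had means under 4 and did not pass. The call is thus that of the brightest probe set, and a change of Med14 over all its transcripts cannot be read from these values. Which transcripts the probe sets detect was not tested.

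The tail module, the main landing site for activators, had no called gene among Med15, Med16, Med23, Med24 and Med25. Their changes lay between -0.11 (Med24) and 0.16 (Med25), with a median of -0.047. Among all genes with a mean of at least 4, 38.6% were called, and 5 genes are too few to set the tail apart from this share. Med23, known as the target of the factor Elk1, read 9.04, 9.02, 8.84 and 8.85 in the Rad21 knock-down, against 8.97, 8.97, 9.04 and 9.05 in the Luc control. Its knock-down replicates 3 and 4 were low and replicates 1 and 2 were not, and the groups overlapped.

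The kinase module had both the largest rise and the largest fall of the complex, in genes that each have a close relative. Med13l encodes a relative of Med13, the protein that ties the kinase to the core. It read 10.45, 10.40, 10.56 and 10.52 in the Rad21 knock-down, against 11.33, 11.40, 11.33 and 11.40 in the Luc control. The groups were far apart in comparison with their spread, and Med13l fell to 54.3% of control (log2 change -0.88, SE 0.04, limma adjusted p = 2.21e-05).
A second probe set of Med13l read 9.63, 9.55, 9.63 and 9.51 in the Rad21 knock-down, against 10.40, 10.34, 10.42 and 10.46 in the Luc control, again without overlap. It fell by 0.83 on the log2 scale (SE 0.04, limma adjusted p = 2.38e-05). The remaining probe set of Med13l had a mean under 4 and did not pass.
Med13 read 9.42, 9.56, 9.42 and 9.37 in the Rad21 knock-down, against 9.34, 9.29, 9.25 and 9.24 in the Luc control. Its groups stood apart by a small step, and it did not pass (log2 change 0.16, SE 0.05, limma adjusted p = 0.0551). It did pass when knock-down replicate 4 was left out, with an adjusted p of 0.0449.

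Med12l encodes a relative of Med12, the subunit that activates the kinase. It read 6.17, 6.68, 5.36 and 5.81 in the Rad21 knock-down, against 4.08, 3.95, 3.96 and 4.08 in the Luc control. All knock-down arrays were above all controls, and the spread within the knock-down was the widest of any called member (SD 0.56, against 0.07 in the control, n = 4 each). Med12l rose 3.96-fold (log2 change 1.99, SE 0.25, 95% confidence interval 1.39 to 2.58, limma adjusted p = 0.00189). Its control values lie near the low plateau to which the deposited values pull dim probe sets, and its other 2 probe sets had means under 4 and did not pass. The rise therefore rests on a single probe set.
Med12 read 6.97, 6.82, 6.96 and 6.69 in the Rad21 knock-down, against 7.0, 6.94, 6.93 and 7.16 in the Luc control. The groups overlapped, and it did not pass (log2 change -0.15, SE 0.08, limma adjusted p = 0.334).

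Cdk8, the kinase, and Cdk19, its relative, did not pass. Cdk8 had a change of -0.09 (95% confidence interval -0.17 to 0.00, limma adjusted p = 0.233). Cdk19 had a change of -0.09 with a wider interval (-0.37 to 0.20, limma adjusted p = 0.825). A slightly dimmer probe set of Cdk19 had the opposite sign and did not pass (log2 change 0.19, interval 0.02 to 0.37, limma adjusted p = 0.155). Ccnc, the gene of cyclin C, read 10.85, 10.90, 10.77 and 10.86 in the Rad21 knock-down at its brightest probe set, against 10.85, 10.70, 10.71 and 10.70 in the Luc control. Control replicate 1 reached into the knock-down values, and the gene did not pass (log2 change 0.10, SE 0.05, limma adjusted p = 0.224). Without that array the adjusted p was 0.0414.
A dimmer probe set of Ccnc had the opposite sign and did pass, at 7.02, 6.95, 7.01 and 6.95 in the Rad21 knock-down, against 7.43, 7.39, 7.12 and 7.17 in the Luc control (log2 change -0.30, SE 0.07, limma adjusted p = 0.0332). Another dim one read lower in every knock-down array than in any control (log2 change -0.42, SE 0.12, limma adjusted p = 0.0534). No direction can be given for Ccnc as a gene from these probe sets.

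**Figure D2:**
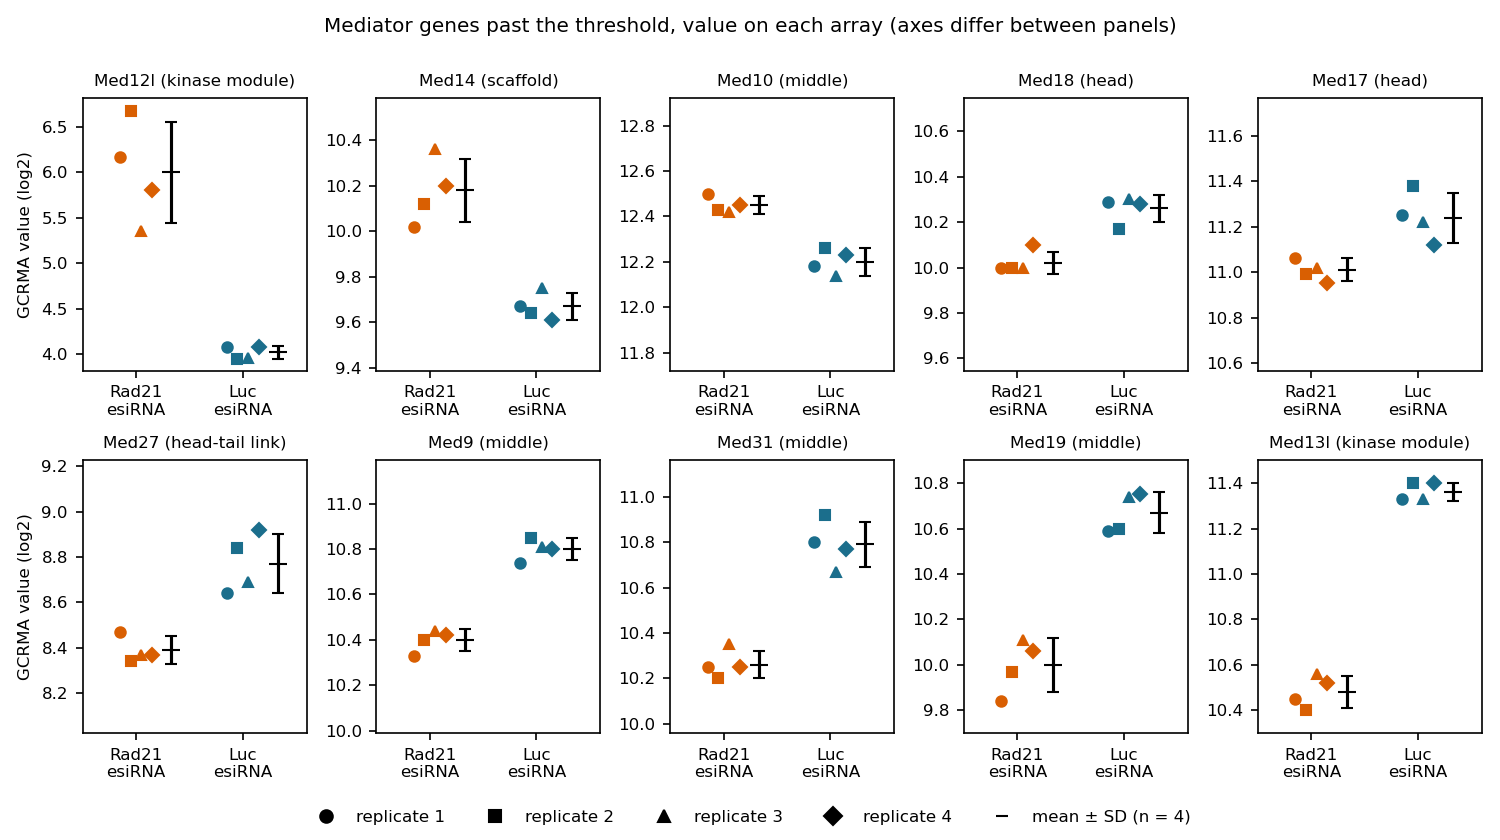
Value on each array (log2 GCRMA, y axis, different range in each panel) of the 10 called Mediator genes, with the Rad21 knock-down to the left of the Luc control, a marker shape for each replicate number and bars for the mean ± SD (n = 4). In every panel the groups do not overlap, and the knock-down values of Med12l spread from 5.36 to 6.68.

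The related genes of the kinase module were then set against each other within each array, for the 3 pairs that the complex contains. Med12l minus Med12 was -1.61 to -0.14 in the Rad21 knock-down and -3.09 to -2.92 in the Luc control, a difference of 2.13 (exact permutation test, two-sided, p = 0.0286, Benjamini-Hochberg adjusted p = 0.0429 over 3 pairs). Med13l minus Med13 was 0.84 to 1.16 in the Rad21 knock-down and 1.99 to 2.16 in the Luc control, a difference of -1.04 (exact permutation test, two-sided, p = 0.0286, adjusted p = 0.0429). These p-values are the smallest that 4 arrays against 4 can give. In both pairs the relatives thus moved unequally, and in opposite senses between the pairs. This restates the wide steps of Med12l and Med13l beside the small ones of Med12 and Med13, and is no separate support for them. Cdk19 minus Cdk8 was -4.69 to -4.32 in the Rad21 knock-down and -4.78 to -4.20 in the Luc control, which overlap throughout (exact permutation test, two-sided, p = 0.971, adjusted p = 0.971). Levels of different probe sets are not comparable in themselves, so only the shift of these differences between groups carries information.

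Across all 72 Mediator probe sets, 3 rose and 11 fell. Among all 45037 probe sets 14.9% were called, 6.47% as rises and 8.4% as falls. The 22 probe sets with a mean under 4 contained no call, and 50 lay at or above 4. Among the 33 genes, 11 had several probe sets at or above 4. No gene was called in opposite directions by different probe sets. Med20 and Ccnc were called only at a probe set that was not the brightest.

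**Figure D3:**
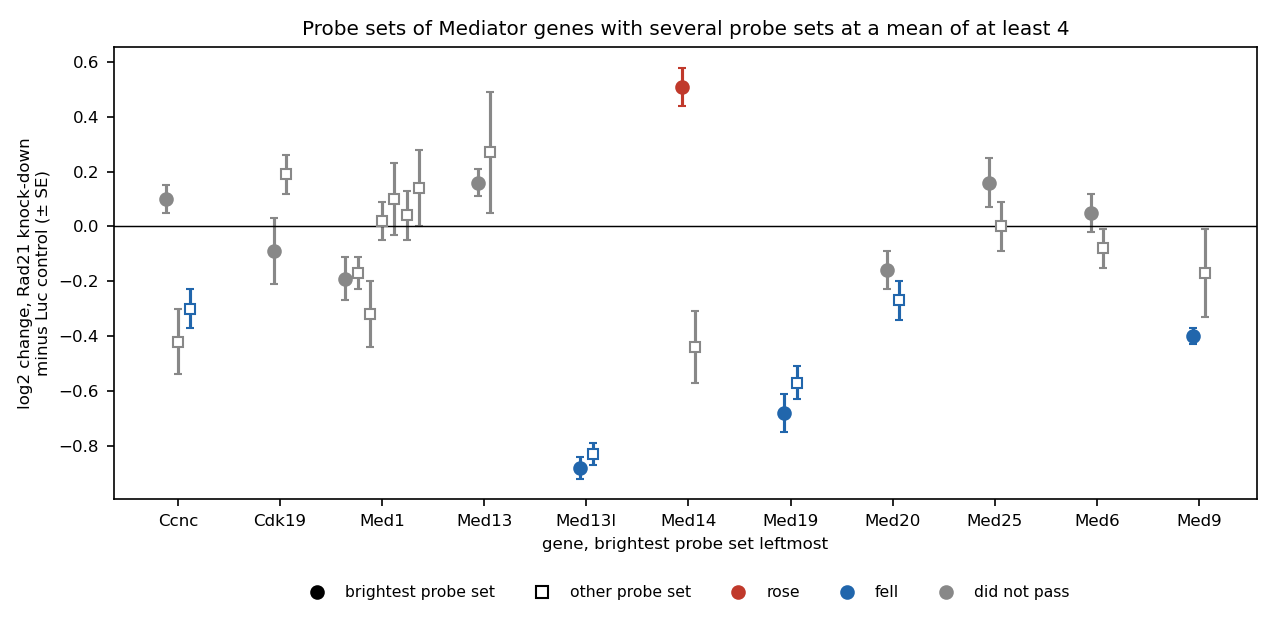
Change in the Rad21 knock-down relative to the Luc control (log2, y axis, bars for the SE, n = 4 arrays per group) of every probe set with a mean of at least 4, for the 11 Mediator genes with several such probe sets (x axis). Both probe sets of Med19 and of Med13l lie together below 0, whereas those of Med14, Ccnc, Cdk19, Med1 and Med6 lie on both sides of 0.

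The first principal component of all probe sets, with 66.2% of the variance, parted the knock-down from the control. The second, with 11.6%, separated arrays numbered 1 and 2 from those numbered 3 and 4, whichever esiRNA they had received. No batch is given for this split, and the Mediator genes were therefore also compared inside either set of 4 arrays. All 10 called members had the same sign in both sets. Their groups did not overlap over all arrays, so this had to be so and is no separate support. For replicates 1 and 2 followed by replicates 3 and 4, Med12l had changes of 2.41 and 1.56, Med14 of 0.41 and 0.60, Med13l of -0.94 and -0.82, Med19 of -0.69 and -0.66, Med31 of -0.64 and -0.42, and Med9 of -0.43 and -0.37. These 6 genes passed in both sets, each set giving 2 arrays per group. Med10, Med17, Med18 and Med27 passed in neither. As background, 19.9% of all genes passed in the set numbered 1 and 2, and 15.3% in the set numbered 3 and 4. Whether the change itself differed between sets was tested as an interaction, which no member of the 33 passed, the lowest adjusted p being 0.0565 (Med23), while 1.03% of all genes passed it.

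**Figure D4:**
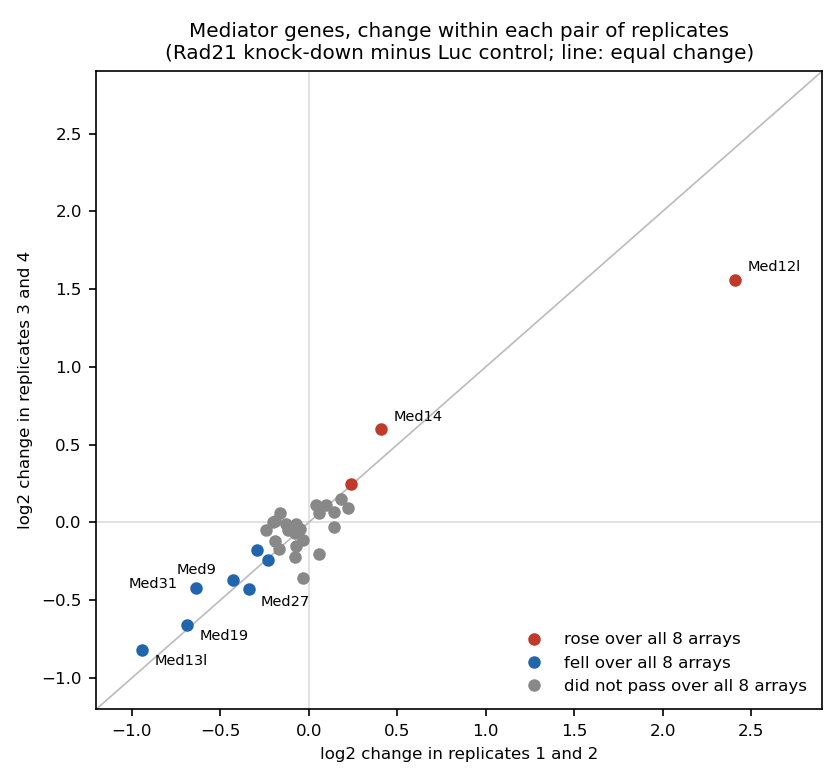
Change in the Rad21 knock-down relative to the Luc control (log2) for the 33 Mediator genes, from replicates 1 and 2 on the x axis and from replicates 3 and 4 on the y axis, 2 arrays per group each, with a line where both are equal. The called genes keep their sign, as their non-overlapping groups require, with Med13l at -0.94 and -0.82. Med12l lies farthest from the line at 2.41 and 1.56.

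The proteins that Mediator works with were taken as 4 lists. Of 11 RNA polymerase II subunit genes, 4 fell and none rose (median change -0.114). Polr2e fell to 75.4% of control (log2 change -0.41, SE 0.06, limma adjusted p = 0.00453), Polr2i to 78.9% and Polr2g to 85.7%. Polr2a, the catalytic subunit, read 11.5, 11.5, 10.88 and 10.79 in the Rad21 knock-down, against 10.68, 10.79, 10.33 and 10.52 in the Luc control, and did not pass over all arrays (log2 change 0.59, SE 0.20, limma adjusted p = 0.102). The groups overlapped across replicate numbers, but inside either replicate set every knock-down array was above every control. Its change was 0.76 in the set numbered 1 and 2 (limma adjusted p = 0.00544) and 0.41 in the set numbered 3 and 4 (limma adjusted p = 0.10). With a block for the sets, 13 genes of the 4 lists together were higher in the knock-down, against 8 without it. Polr2k and Polr2l, and in the lists that follow among others Gtf2h2, Taf9, Supt4a, Ell3 and Trp53, had no single-symbol probe set here and were not analysed.
Of 31 genes of general transcription factors, which assemble the polymerase at promoters, 5 rose and 8 fell (median change -0.106). Taf9b, a TFIID subunit gene with a close relative in Taf9, read 7.46, 7.19, 7.03 and 6.90 in the Rad21 knock-down, against 5.44, 5.50, 5.90 and 5.87 in the Luc control. The groups were far apart, and Taf9b rose 2.77-fold (log2 change 1.47, SE 0.15, limma adjusted p = 0.00077). Taf4b rose 1.19-fold and Gtf2e1, of TFIIE, 1.16-fold. Taf13, Taf5 and Taf3, all of TFIID, fell to 65.7%, 66.4% and 71.0% of control.
Of 26 genes of pausing and elongation factors, 2 rose and 5 fell (median change -0.014). Nelfa, of the negative elongation factor, rose 1.52-fold and Larp7, which holds the 7SK RNA, 1.11-fold. Hexim2, an inhibitor of the elongation kinase P-TEFb, fell to 51.4% of control, Aff1, a scaffold of the super elongation complex, to 56.2%, and Nelfe to 73.8%.
Of 20 genes of factors and enzymes reported to bind Mediator, 1 rose and 4 fell (median change -0.007). Gli3 rose 1.48-fold (log2 change 0.56, SE 0.06, limma adjusted p = 0.000616). Etv4, an Ets factor, read 5.73, 5.73, 5.73 and 5.85 in the Rad21 knock-down, against 7.30, 7.32, 7.80 and 8.13 in the Luc control. The groups were well apart, and Etv4 fell to 27.2% of control (log2 change -1.88, SE 0.18, limma adjusted p = 0.000588). Nanog, a core pluripotency factor, fell to 56.3% of control and the repressor Rest to 64.9%. Nipbl and its partner Mau2, which load cohesin, did not pass, with changes of -0.04 (SE 0.13) and 0.02 (SE 0.04). The Nipbl value averages opposite signs, 0.27 in replicates 1 and 2 and -0.35 in replicates 3 and 4. Neither set passed (limma adjusted p = 0.229 and 0.136), nor did the interaction (limma adjusted p = 0.173). Shares called were 36.4%, 41.9%, 26.9% and 25.0% in the order of the 4 lists, beside 30.3% of Mediator genes, 22.6% of all genes and 38.6% of genes with a mean of at least 4, to which all but 4 genes of the lists belong.

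**Figure D5:**
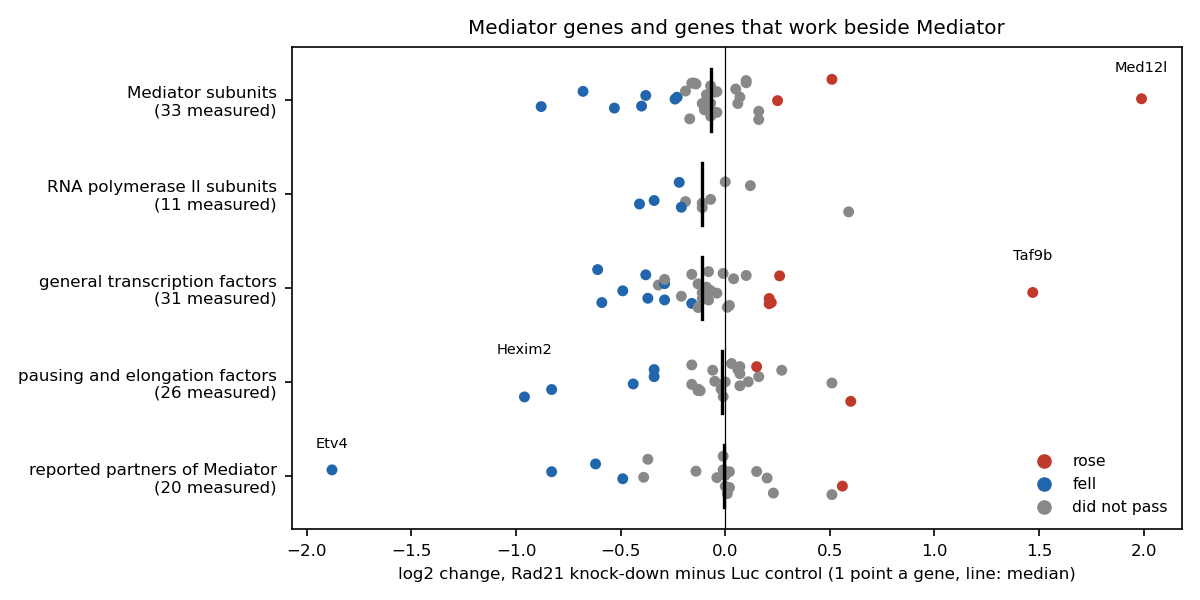
Change in the Rad21 knock-down relative to the Luc control (log2, x axis) of each measured gene in Mediator and in the 4 lists of genes that work beside it, with a point for each gene and a black line for the median of the list. The medians lie between -0.114 and -0.007, and Med12l, Taf9b, Hexim2 and Etv4 lie outside the body of their lists.

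Markers of the labelled cell type moved with the groups. Of 10 ESC marker genes, 8 fell and none rose, and their mean level was 13.09 to 13.12 in the Rad21 knock-down and 13.78 to 13.83 in the Luc control. All 10 had a mean of at least 4. The lowest group mean among them was 9.77, for Fgf4 in the knock-down, so all 10 lay well above the array medians in both groups. Of 10 endoderm markers, 2 rose (Foxa2 and Dab2) and 7 had a mean under 4. Their mean level was 4.12 to 4.46 in the knock-down and 3.47 to 3.56 in the control. In replicates 3 and 4 alone, Cubn and Sox7, both with a mean under 4, passed as rises (1.86 and 0.43, limma adjusted p = 0.0236 and 0.0313). Lama1 passed there as a fall (-0.54, limma adjusted p = 0.0428). Cubn, Sox7 and Lama1 did not pass in replicates 1 and 2 alone or over all arrays, although the Cubn groups did not overlap. Of 10 trophectoderm markers, 2 rose (Cdx2 and Krt7), 1 fell (Tfap2c) and 3 had a mean under 4. Krt18 passed inside both replicate sets (0.40 and 0.55, limma adjusted p = 0.0311 and 0.018) but not over all arrays. In replicates 1 and 2 alone, Krt8 passed as a rise (0.52, limma adjusted p = 0.00755). Ascl2 and Eomes passed there as falls (-0.62 and -0.49, limma adjusted p = 0.0063 and 0.00791). Krt8, Ascl2 and Eomes did not pass in replicates 3 and 4 alone or over all arrays. The mean level of the trophectoderm markers was 6.37 to 6.59 in the knock-down and 5.95 to 6.27 in the control. Of 10 fibroblast markers, 1 fell (Thy1) and 8 had a mean under 4. Their mean level was 3.33 to 3.46 in the knock-down and 3.34 to 3.41 in the control. Col3a1, with a mean under 4, passed as a rise in replicates 1 and 2 alone (1.35, limma adjusted p = 0.0127). It did not pass in replicates 3 and 4 alone or over all arrays. As background for these counts, 22.6% of all genes were called, and 38.6% of genes with a mean of at least 4. The share called among the ESC markers stood above both. The endoderm and fibroblast markers lay below both, and the trophectoderm markers lay between them. Lists of 10 genes are too few to set the endoderm, trophectoderm and fibroblast markers apart from background by their counts. The part of the marker shifts in the changes of the Mediator genes was not tested. In RNA from whole cultures, fewer cells of a type and less RNA per cell cannot be told apart.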

How the data were processed

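Total RNA of R1/E cells was measured on 8 arrays, 4 per group. The deposited log2 values were made by the authors with GCRMA, which corrects background by probe GC content, normalizes arrays to a common distribution and summarizes probe sets, in Partek Genomics Suite 6.4. A shift of all transcripts together is thus hidden, and dim probe sets lie on a low plateau. From 45101 probe sets, 64 controls were left out. Symbols came from the platform annotation (34945 probe sets with a single symbol, 932 with several, 9160 with none here).

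The groups were compared with limma 3.58.1 (lmFit, eBayes) in R 4.3.3, tested on simulated data, without a block or filter, with Benjamini-Hochberg adjustment over all 45037 others. An adjusted p under 0.05 was a call. Depth does not apply to arrays, whose number limits the precision. Named genes are all 33 members, all Rad21 probe sets and, in each of the 4 lists, up to 3 called genes in each direction by size. Polr2a, Nipbl, Mau2, Tbx3, Tmx2, Zdhhc5 and the markers were chosen after their values were seen. So were the dimmer probe sets of Med1, Med9, Med13, Med20, Cdk19 and Ccnc. The members, lists and alternatives were chosen with earlier results of these data known. Alternatives were plain analysis of variance, which the study's methods name, a variance trend, blocks, single replicate sets, other thresholds and scalings, array weights, other probe-set rules, and leaving out each array. Scanner files were not used here.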

Additional observations from a re-analysis of the deposited data

Results flagged for a closer look

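Within the groups of 4 arrays, 4 of 68 sets of values of a Mediator gene or of Rad21 held an array far from the other 3 by Dixon's test, and chance alone marks about 1 in 20. Med18 had a high value of 10.10 in knock-down replicate 4, beside 10 (to 2 decimals) in the others, and a low value of 10.17 in control replicate 2, beside 10.28 to 10.30. Both arrays lie toward the opposite group. Ccnc read 10.85 in control replicate 1, beside 10.70 to 10.71. Med8 read 12.14 in control replicate 2, beside 11.93 to 11.96.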

How the results depend on the processing

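The 10 calls of Mediator genes were tested under 20 other settings. Over the 33 genes, 624 single values kept their direction and side of the threshold, and 15 turned, in 9 genes. Of those that did not turn, 14 lost a call and 7 gained one. Averaging every probe set of a gene, dim ones included, turned 5, with Ccnc at -0.12, Med14 at -0.03, Cdk19 at 0.05, Med15 at 0.03 and Med28 at 0.09. Among these, Med14 lost its call (limma adjusted p = 0.799) and Ccnc passed as a fall (limma adjusted p = 0.0307). The same averaging turned Cdk19 minus Cdk8 to 0.14. The turns in other settings were of genes that passed neither way. They were Cdk19 at 0.01, Med15 at 0.06, Med4 at 0.00 and Med6 at -0.03 in replicates 3 and 4 alone, Med23 at 0.06 in replicates 1 and 2 alone, and Med15 at 0.03 with array weights. With single arrays left out, Cdk19 ranged over -0.19 to 0.00, Med15 over -0.10 to 0.02 and Med6 over -0.01 to 0.10, each turning without control replicate 2, and Med16 ranged over -0.08 to 0.00, turning without knock-down replicate 1. Within replicates 1 and 2 alone, 4 Mediator genes were lower (7 over all arrays) and 5 genes of the machinery lists were higher (8 over all arrays). Within replicates 3 and 4 alone, 7 Mediator probe sets were lower (11 over all arrays), and Med23 passed. These fits have fewer arrays. Genes higher in the machinery lists numbered 5 at an adjusted p under 0.01 and 13 with a block for replicates 1 and 2 against 3 and 4. When single arrays were left out, higher Mediator genes numbered 3 to 4 and lower ones 6 to 7, higher probe sets 3 to 4 and lower ones 8 to 11, and machinery genes 8 to 9 higher and 18 to 24 lower. Rad21 lay between -1.73 and -1.45, and the paired differences between 1.90 and 2.39 for Med12l minus Med12, -1.08 and -0.98 for Med13l minus Med13, and -0.10 and 0.09 for Cdk19 minus Cdk8. Med17 also lost its call in plain analysis of variance (adjusted p = 0.0563), and Med13 gained one with the block of replicate sets, with centring on bright probe sets and with array weights (adjusted p 0.0218 to 0.0247 in limma). Quantile normalization and centring moved the median change of all genes from 0.003 to -0.006 and 0.033. The replicate numbers were not taken as pairs, since same-numbered arrays deviated together with correlations of 0.0215 to 0.133, and with the replicate block 3 Mediator genes were higher and 7 lower, the same 10 genes, with 10 lower probe sets. Changes well under 0.5 on the log2 scale are at the limit of what 4 arrays per group resolve, and values under about 4 give no reliable direction.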

Other observations

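Neighbours of the 10 called Mediator genes were taken by order along the chromosome in the RefSeq annotation of GRCm38.p6. The nearest protein-coding genes on either side that did not overlap a member were 20 in number. Of these, 18 were measured and 6 were called (33.3%, beside 22.6% of all genes). All 6 fell, as did 7 of the 10 Mediator genes, and both neighbours of Med14 fell although Med14 rose, so no relation of direction between neighbours can be read from them. Tbx3, a T-box factor of ESC self-renewal, is the next protein-coding gene after Med13l. It read 9.39, 9.52, 8.70 and 8.57 in the Rad21 knock-down, against 11.17, 11.24, 11.21 and 11.24 in the Luc control. The groups were far apart, and Tbx3 fell to 22.3% of control (log2 change -2.17, SE 0.22, limma adjusted p = 0.000648). Replicates 1 and 2 alone gave -1.75 and the arrays numbered 3 and 4 gave -2.59, and this difference had a limma adjusted p of 0.0339. The gene before Med13l, Spring1, did not pass (log2 change 0.09, SE 0.11, limma adjusted p = 0.794).

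Genes that overlap a called member are left out of the count of neighbours above and numbered 10. Tmx2, which overlaps Med19, fell (log2 change -0.18, SE 0.05, limma adjusted p = 0.0373). Zdhhc5, which also overlaps Med19, lay higher and did not pass (log2 change 0.24, SE 0.08, limma adjusted p = 0.0965). None of the other measured overlapping genes was called. Med12l overlaps 6 other genes, most of them purinergic receptor genes or their relatives. Of the 5 measured, none was called, and their changes lay between -0.02 (P2ry12) and 0.02 (P2ry13), with low values in both groups, as for P2ry12 at a mean of 2.27 in the Rad21 knock-down and 2.29 in the Luc control.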
